A study of Mus musculus with 15 samples.

Results

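The genes described here are 39 genes of the hypoxia response and of glycolysis, out of 53801 genes in the count table. They were selected from a list of HIF targets, HIF pathway genes and glycolytic enzymes that was drawn up with results of the 4-OHT comparison known, and Car9, with the highest fold change of the list in that comparison, belongs to it. All 39 were found in the table, and all passed the filter on low counts in each of the 3 comparisons. A further 59 genes of the same pathways were followed beside them. They were also listed with earlier results of these data known, so that their counts are a description too.

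The study sequenced poly(A) RNA from 15 cultures of primary adult neural stem cells (aNSCs), in 3 groups of 5, to follow the loss of Trrap, an adaptor of histone acetyltransferase complexes. All mice were of the strain C57BL6/J-129sv, were 2 months old and carried Rosa26-CreERT2, a Cre recombinase that is active in the presence of 4-hydroxytamoxifen (4-OHT). Trrap Fl/+ cultures of mice 19, 24, 26, 35 and 36 were sequenced without treatment and again after 4-OHT, so that both Fl/+ groups come from the same mice. Trrap Fl/Fl cultures of mice 27, 28, 29, 37 and 39 were sequenced after 4-OHT. The labels give 5 treatment days for every 4-OHT culture and no treatment for the untreated ones. Fl/+ controls also hold 1 floxed allele that the active Cre can recombine, and no untreated Fl/Fl or Cre-negative culture was analysed here. Cells grew in suspension in serum-free medium with EGF and bFGF. Oxygen was not among the labelled variables, and no culture was labelled as hypoxic.

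When oxygen is scarce, the HIF alpha subunits escape hydroxylation by the EGLN prolyl hydroxylases, are no longer degraded through VHL, pair with ARNT and bind a short core motif near their target genes. Their targets supply glucose transporters, glycolytic enzymes, acid-handling enzymes and growth factors such as VEGFA, and several of them, EGLN3 among them, feed back on HIF itself. Since HIF alpha is controlled mainly at the protein level, mRNA of Hif1a and Epas1 is a poor measure of its activity. Neural stem cells are known for a strongly glycolytic metabolism.

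Libraries held 25720034 to 32187097 assigned counts. Trrap, the deleted gene, was at 179 to 214 CPM (the usual depth-scaled count, here with TMM factors) in untreated Fl/+, 138 to 204 CPM in Fl/+ 4-OHT and 82.8 to 142 CPM in Fl/Fl 4-OHT cultures, and Fl/Fl mouse 29, at 142 CPM, lay inside the range of the Fl/+ 4-OHT group. Fl/Fl mouse 39 is labelled female, while its Xist was at 0.313 CPM and its Ddx3y at 54.1 CPM, and the Fl/+ culture of mouse 36, labelled male, had Xist at 5.89 CPM untreated and 74.7 CPM after 4-OHT. The mitochondrial share of counts was 1.72% to 3.56% in untreated, 0.849% to 1.74% in Fl/+ 4-OHT and 1.36% to 2.19% in Fl/Fl cultures, and its part in the results was not tested. Of the stem cell markers (summed 4591 to 5764, 5211 to 6361 and 4253 to 8068 CPM in the 3 groups, in this order) 1 of 8 was called higher and 2 lower after 4-OHT in Fl/+. Of 7 astrocyte markers (5560 to 7352, 5431 to 7004 and 4913 to 8857 CPM) 1 was higher and 3 lower. Of 7 neuron markers (867 to 1148, 837 to 1027 and 591 to 841 CPM) none was called in that comparison, at an adjusted p under 0.05 in edgeR. Of 8 oligodendrocyte markers (2483 to 3466, 2319 to 3298 and 2621 to 4449 CPM) 5 were higher and none lower. Pericyte markers summed to 60.4 to 118, 114 to 212 and 74.5 to 151 CPM, with 3 of 5 tested after 4-OHT in Fl/+ and 1 called higher. Endothelial markers summed to 4.92 to 6.04, 5.43 to 8.92 and 5.71 to 9 CPM, with Cldn5 at 0 in all untreated and Fl/Fl libraries, and microglial markers to 0.0698 to 0.616, 0.119 to 0.507 and 0.689 to 2.02 CPM, with Aif1 and Cx3cr1 at 0 in all Fl/+ 4-OHT libraries. In the Trrap deletion, 2 stem cell and 2 neuron markers were lower, and 1 neuron and 1 oligodendrocyte marker higher. In Fl/Fl 4-OHT against untreated cultures, 3 stem cell, 3 astrocyte, 5 neuron and 1 oligodendrocyte markers were lower, and 6 oligodendrocyte, 1 astrocyte, 1 endothelial and 1 pericyte markers higher. The part of these markers in the results of each comparison was not tested. In such bulk RNA, fewer cells of a type and less RNA per cell cannot be told apart.

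The HIF core motif is shown first, for 10 members chosen after their values were seen, among those whose groups did not overlap in at least 1 comparison and whose windows hold it. Hk1, Pfkfb4, Pfkp, Pgk1 and Slc2a1 meet the same terms and are not shown. A window of 250 bases before to 50 after the RefSeq start (GRCm38.p6) was at hand for 35 of the 39 members and was searched for ACGTG and GCGTG on both strands, which read CACGT and CACGC on the gene's strand when they lie on the other one. ACGTG and CACGT overlap within the palindrome CACGTG, and a match is a description of the letters only. In the GENCODE annotation, all 25 bases of the Car9, Ankrd37, Pfkfb3, Kdm3a and Aldoc stretches and 15 bases of the Slc16a3 stretch lie in exons of transcripts of the same gene, and those of P4ha2, Egln3 and Ldhb lie in no exon. At least 1 window of 31 of the 35 members (88.6%) held a match, against 46.7% of 27025 genes with a window in the same table. Counted by window, the shares were 75.5% of 53 and 43.8% of 32851. Nothing is read from these shares, since the members were listed as HIF targets, HIF pathway genes and glycolytic enzymes. Car12, Gpi1, Eno2 and Tpi1 had none in their windows, and Epas1, Ndrg1, Bnip3l and Slc2a3 had no window. Stretches of 25 bases follow, on the gene's strand, 5′ to 3′, with each match in capitals.
Car9, chr4:43506998-43507022, plus strand: atttccgatgCACGTacagcccgtc
Slc16a3, chr11:120949043-120949067, plus strand: tgcgcgggggACGTGccgcgcgacg
Ankrd37, chr8:45999842-45999866, minus strand: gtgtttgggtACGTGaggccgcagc
P4ha2, chr11:54100845-54100869, plus strand: tACGTGcagcGCGTGgcggctcggg
Egln3, chr12:54204089-54204113, minus strand: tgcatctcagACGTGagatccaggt
Pfkfb3, chr2:11553975-11553999, minus strand: ccgcgccgtgACGTGccaagctgtg
Kdm3a, chr6:71632930-71632954, minus strand: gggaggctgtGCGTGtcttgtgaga
Ldhb, chr6:142508069-142508093, minus strand: gggggagagcGCGTGcacactccag
Aldoc, chr11:78323013-78323037, plus strand: acctctgaggGCGTGgccttaccct
The matches shown began 18 bases before the start in Car9, 14 in Slc16a3, 6 in Ankrd37, 78 and 69 in P4ha2, 229 in Egln3, 60 in Pfkfb3, 27 in Kdm3a, 126 in Ldhb and 50 in Aldoc. They are those nearest the start of 1 window a gene, and Slc16a3, Ankrd37 and P4ha2 hold further ones upstream, as do second windows of Pfkfb3 and Aldoc. Matches before the RefSeq start, several of them in annotated exons, were thus present in genes called higher after 4-OHT. They were also present in Ankrd37 and Kdm3a, which were not called, and in Ldhb and Aldoc, which were lower. For Hk2, whose 250 upstream bases (chr6:82774455-82774704, minus strand) overlap no annotated exon, both matches are shown in the whole stretch, since Hk2 differed without overlap in both directions described next.
Hk2: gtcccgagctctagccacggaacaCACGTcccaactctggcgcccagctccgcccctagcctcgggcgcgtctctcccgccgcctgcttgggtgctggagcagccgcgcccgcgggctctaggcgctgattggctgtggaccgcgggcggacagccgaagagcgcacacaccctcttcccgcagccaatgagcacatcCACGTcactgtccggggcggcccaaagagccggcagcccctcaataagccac

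After 4-OHT, Fl/+ cultures held more mRNA of 18 of the 39 members, by 1.64-fold (Hk1) to 24.8-fold (Car9). Carbonic anhydrases, glucose and lactate transporters and several glycolytic enzymes were among them, while Ldhb and Aldoc were lower. These 18 were called higher and 2 members lower, the other 19 not, against 7.34% and 6.45% of 14821 genes tested, and nothing is read from this count because the list was drawn up with this comparison in view. For the same reason no p is given for a member here. The 2 groups did not overlap for 13 members that were higher and 2 that were lower, against 6.52% and 5.47% of all genes tested, and nothing is read from this count either. The median log2 fold change was 0.79, against -0.01 over all genes tested. In the paired view of each mouse, 24 members were higher in 5 of 5 mice (17.8% of all genes tested) and 2 were lower in 5 of 5 (17.8% of all genes tested). With the mouse as a replicate block, 24 members were called higher and 2 lower, against 13.8% and 11.9% of all genes. The 6 added were Bnip3, Bnip3l, Pfkl, Tpi1, Eno1 and Eno2. Without the 4-OHT library of mouse 24, 12 members were called higher.

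In the comparison of Trrap Fl/Fl with Fl/+ cultures, both after 4-OHT (the Trrap deletion), most estimates pointed the other way: the lactate exporter Slc16a3, hexokinase Hk2 and the HIF target Ankrd37 were lower without overlap, and Pfkm, Pfkfb4 and Aldoc were higher. 12 members were called lower and 3 higher, against 15.0% and 16.8% of 15036 genes tested. These shares of the members are 30.8% and 7.69%. Lower without overlap were 4 members (10.3%) and higher 2 (5.13%), no more than the 11.4% and 11.2% of all genes tested. The median log2 fold change of the members was -0.47, against 0.02 over all genes, and 33 of 39 estimates were below 0. The 5 Fl/+ 4-OHT libraries enter both this comparison and the one in whose view the genes were chosen, so a high value in them raises the first difference and lowers the second. Without the Fl/+ 4-OHT library of mouse 24, which held the highest level of its group for 30 of the 39 members, 8 members were called lower and the median was -0.25. The number called lower was 18 with the Wald test of DESeq2, 15 with the mouse number series as a covariate and 7 in the joint fit of all 15 libraries. The calls of Aldoa were lost in 6 of 18 alternatives, and those of Pfkp and Tpi1 in 1 each. Without Fl/Fl mouse 27 or Fl/Fl mouse 39, the 2 lowest cultures of that group, 7 and 8 were called lower.

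Against untreated Fl/+ cultures, Fl/Fl 4-OHT cultures were higher in 10 members and lower in 3, against 15.7% and 15.1% of 15032 genes tested. Without overlap 5 were higher and 1 lower (12.8% and 2.56%, against 11.5% and 11.6% of all genes tested), so that the share higher was near that of all genes. The median log2 fold change was 0.53, against 0.00 over all genes. This comparison shares its libraries with the other two, and its untreated libraries are those of the comparison in whose view the genes were chosen, so a low value in them raises both differences. Without the untreated library of mouse 24, 17 members were called higher, and without Fl/Fl mouse 29, 6 were. The calls of P4ha1, Gpi1 and Pfkm were lost in 6, 5 and 2 of 18 alternatives. For 26 members the Fl/Fl mean lay between the Fl/+ means before and after 4-OHT, for 5 above both (Epas1, Adm, Pfkm, Pfkfb4 and Eno2) and for 8 below both (Hif1a, Ankrd37, Kdm3a, Mxi1, Aldoa, Gapdh, Pgam1 and Ldhb).

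**Figure D1:**
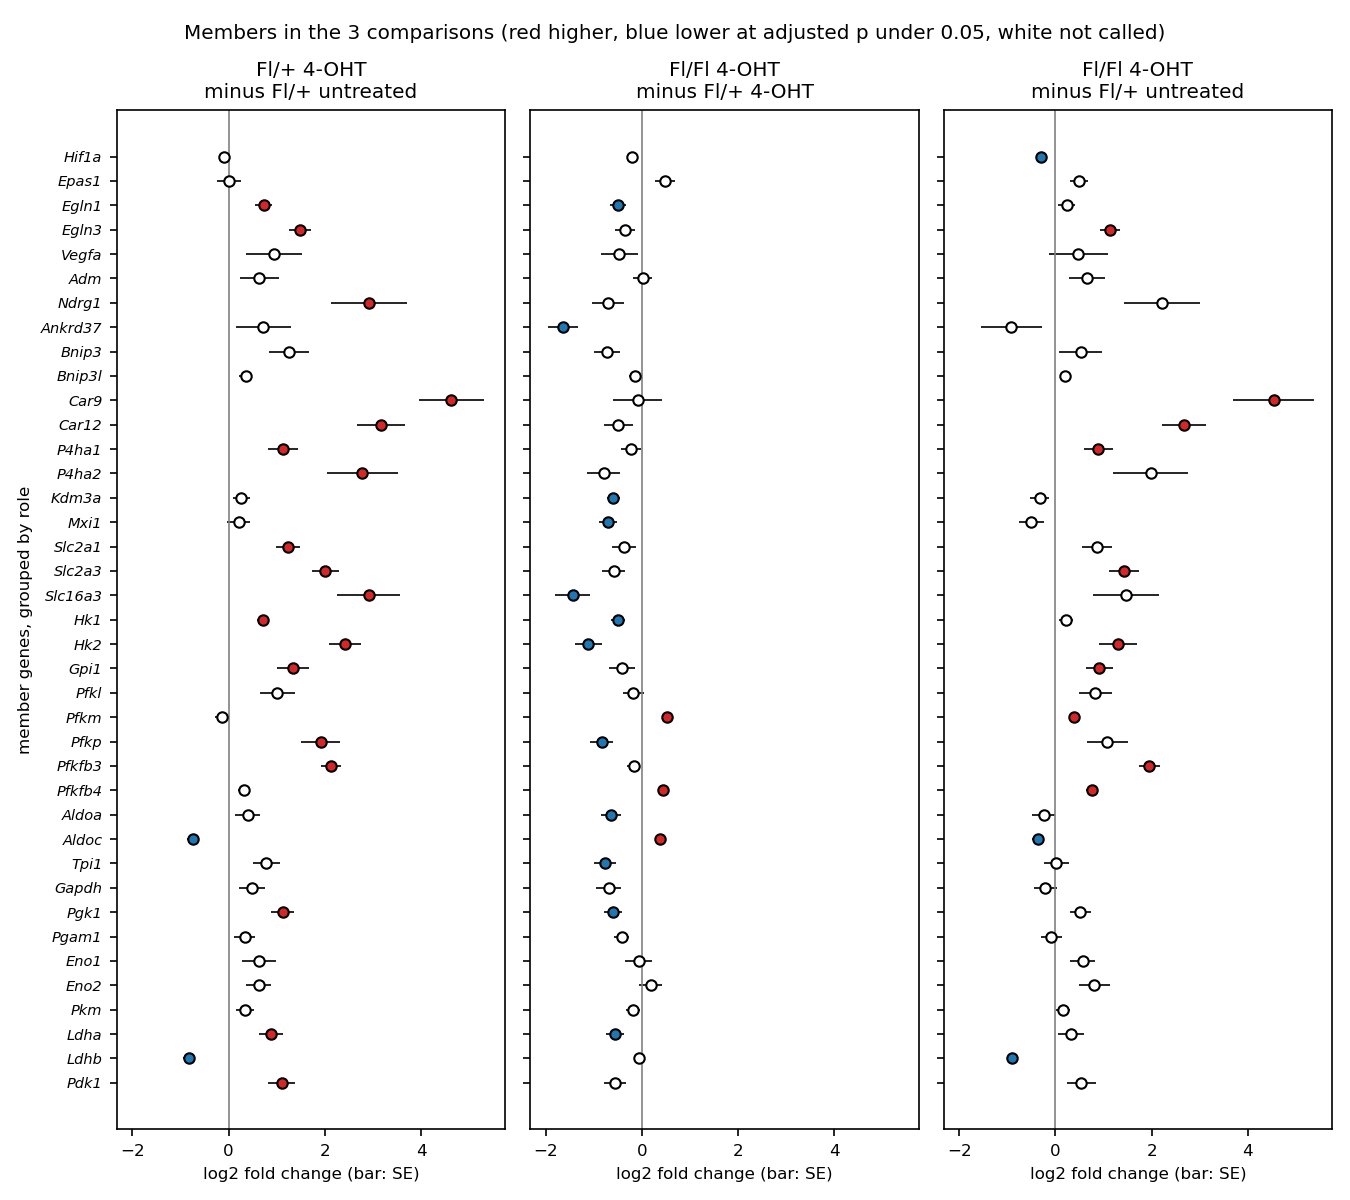
Log2 fold change with its standard error for the 39 members (rows, grouped by role) in the 3 comparisons, each fitted on its 10 libraries. Most points lie right of 0 after 4-OHT in Fl/+ (median 0.79), left of 0 for Fl/Fl against Fl/+ after 4-OHT (median -0.47), and right of 0 for Fl/Fl 4-OHT against untreated (median 0.53).

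Values per library are given in CPM in the order of mice 19, 24, 26, 35 and 36 for Fl/+ cultures and of mice 27, 28, 29, 37 and 39 for Fl/Fl cultures. Levels of different genes are compared only per kb of exon, further on.

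The mRNAs of the HIF alpha subunits differed little between the groups. Hif1a, on chromosome 12, was at 127, 143, 142, 150.3 and 171 CPM in untreated Fl/+ cultures and at 144, 135, 114, 141 and 155 CPM after 4-OHT. In Fl/Fl cultures it was at 110.4, 119, 110.3, 127 and 125 CPM. All groups overlapped, and the log2 fold change was -0.09 ± 0.10 (SE, n = 5 per group) for 4-OHT, -0.21 ± 0.08 for the Trrap deletion (edgeR adjusted p = 0.0744, passed in 2 of 18 alternatives) and -0.30 ± 0.09 for Fl/Fl 4-OHT against untreated (edgeR adjusted p = 0.0243, lost in 5 of 18 alternatives). Epas1, which encodes HIF-2 alpha, was at 72.2, 82.5, 113, 134 and 67.7 CPM in untreated cultures and at 71.7, 139, 114, 84.1 and 63.2 CPM after 4-OHT. The Fl/Fl cultures had 165, 127, 114, 126 and 118 CPM. Here, too, the groups overlapped, with log2 fold changes of 0.01 ± 0.25, 0.48 ± 0.20 (edgeR adjusted p = 0.0973) and 0.48 ± 0.19 (edgeR adjusted p = 0.0716) in the same order. Without the Fl/+ 4-OHT library of mouse 24 the deletion estimate of Epas1 was 0.65 (edgeR adjusted p = 0.0208).

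Egln1 and Egln3, oxygen-sensing hydroxylases that mark HIF alpha for degradation and are themselves HIF targets, were higher after 4-OHT. The related Egln2, no member, was at 72.3 ± 7.76 CPM untreated and 69.2 ± 10.5 CPM after treatment (mean ± SD, n = 5) and was higher in 1 of 5 mice. Egln3 went from 71.8, 77.6, 53.7, 48.8 and 38.9 CPM to 128, 247, 163, 152 and 125 CPM, with no overlap and a log2 fold change of 1.49 ± 0.23. Its Fl/Fl values of 92.1, 153, 149, 137 and 101 CPM lay above all untreated ones (log2 fold change 1.13 ± 0.21, edgeR adjusted p = 0.00225, a description). They overlapped those of Fl/+ 4-OHT (-0.35 ± 0.21, edgeR adjusted p = 0.214). Egln1 had 189, 244, 167, 152 and 142 CPM in untreated and 227, 408, 290.4, 279 and 276 CPM in treated Fl/+ cultures, so that only mouse 19 after treatment fell within the untreated range. Fl/Fl cultures were at 178, 227, 249, 232 and 156 CPM for Egln1, lower than Fl/+ 4-OHT by a log2 fold change of -0.49 ± 0.17 (edgeR adjusted p = 0.0439). That call was lost in 9 of 18 alternatives, without mouse 24 among them (edgeR adjusted p = 0.0835). Against untreated cultures the Egln1 estimate was 0.23 ± 0.17 (edgeR adjusted p = 0.326).

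Vegfa, the angiogenic growth factor, differed more among untreated mice than between the groups. It was at 771, 1331, 447, 164 and 114 CPM untreated, and at 599, 1838, 1252, 910.4 and 849 CPM after 4-OHT. Fl/Fl cultures had 619, 872, 1500.3, 542 and 365 CPM. Mice 35 and 36 were the lowest untreated cultures, mouse 19 was lower after treatment, and all groups overlapped. The log2 fold changes of Vegfa were 0.95 ± 0.59 for 4-OHT, -0.47 ± 0.38 for the deletion (edgeR adjusted p = 0.379) and 0.48 ± 0.61 against untreated (edgeR adjusted p = 0.589). Adm, which encodes the vasodilator peptide adrenomedullin, had the same kind of spread, with 87.5, 88.4, 41.9, 26.9 and 19.0 CPM untreated and 54.4, 128, 85.6, 78.8 and 64.3 CPM after 4-OHT. In Fl/Fl cultures Adm was at 67.4, 78.6, 93.7, 92.2 and 80.4 CPM. It was lower in mouse 19 after 4-OHT and higher in the other 4 mice, and the log2 fold changes were 0.64 ± 0.41, 0.02 ± 0.20 (edgeR adjusted p = 0.953) and 0.66 ± 0.37 (edgeR adjusted p = 0.207).

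Ndrg1, a gene induced by hypoxia and differentiation, was at 8.33, 29.7, 2.83, 1.62 and 1.11 CPM untreated and at 47.4, 113, 44.9, 67.7 and 56.6 CPM after 4-OHT. The groups did not overlap, although untreated mouse 24 stood far above the other 4, and the log2 fold change was 2.92 ± 0.78. The Fl/Fl values of 17.7, 48.9, 49.5, 58.3 and 25.6 CPM overlapped both Fl/+ groups (-0.71 ± 0.34 and 2.21 ± 0.79, edgeR adjusted p = 0.133 and 0.0535). For Ndrg1, the call after 4-OHT was lost in 7 of 19 alternatives, and the difference from untreated passed in 7 of 18. Ankrd37, an ankyrin-repeat protein gene and known HIF-1 target, was at 12.7, 10.5, 6.44, 1.58 and 0.958 CPM untreated and at 7.14, 15.2, 11.0, 9.57 and 10.4 CPM in Fl/+ 4-OHT (log2 fold change 0.73 ± 0.58). In Fl/Fl it was at 2.02, 4.42, 4.46, 4.45 and 1.63 CPM, below every Fl/+ 4-OHT culture. This was the largest difference of the Trrap deletion among the members, with a log2 fold change of -1.64 ± 0.31 (3.11-fold, edgeR adjusted p = 0.00309), and it kept its call in all 18 alternatives. Fl/Fl and untreated cultures overlapped for Ankrd37 (-0.91 ± 0.63, edgeR adjusted p = 0.296).

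The mitophagy receptor gene Bnip3 had a mean of 40.6 ± 29.2 CPM (SD, n = 5) untreated, 96.8 ± 23.8 after 4-OHT and 58.0 ± 22.5 in Fl/Fl cultures. Its relative Bnip3l had 70.5 ± 10.3, 90.0 ± 15.9 and 80.7 ± 9.64 CPM. Both were higher after 4-OHT in 5 of 5 mice, and the deletion estimates of -0.72 ± 0.27 and -0.14 ± 0.12 did not pass the test (edgeR adjusted p = 0.0583 and 0.402).

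The carbonic anhydrases, membrane enzymes that hydrate carbon dioxide outside the cell and of which CAIX is a classic hypoxia marker, had the largest log2 fold changes after 4-OHT in the unpaired fit. With the mouse as a replicate block Car9 (4.85) stayed first, and Car12 (3.29) came after Ndrg1 (3.66), Slc16a3 (3.43) and P4ha2 (3.39). Car9 was almost absent from untreated cultures, at 1.19, 1.29, 0.0700, 0.154 and 0.147 CPM (33, 37, 2, 4 and 4 counts), and reached 17.1, 12.4, 6.40, 20.3 and 15.2 CPM after 4-OHT. Its log2 fold change of 4.63 ± 0.68 thus rests on a few counts in 3 of the untreated libraries, and Car9 passed the filter through its treated libraries. In Fl/Fl cultures Car9 was at 3.89, 23.3, 18.1, 18.1 and 3.27 CPM. Mice 27 and 39 lay below all Fl/+ 4-OHT cultures and the other 3 above their mean, with a log2 fold change of -0.09 ± 0.52 (edgeR adjusted p = 0.911), whose sign turned in 3 of 18 alternatives. Against untreated it was 4.54 ± 0.84, given as a description because of the same few untreated counts. Car12 had 1.85, 2.83, 0.455, 0.847 and 0.626 CPM untreated, and 8.59, 21.0, 11.1, 12.2 and 6.60 CPM after 4-OHT. With 5.88, 11.4, 8.69, 9.75 and 6.25 CPM in Fl/Fl, both treated groups lay wholly above the untreated one. The log2 fold changes of Car12 were 3.17 ± 0.51 for 4-OHT and -0.49 ± 0.30 for the deletion (edgeR adjusted p = 0.232). For Fl/Fl against untreated it was 2.67 ± 0.46 (edgeR adjusted p = 0.00168, a description).

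**Figure D2:**
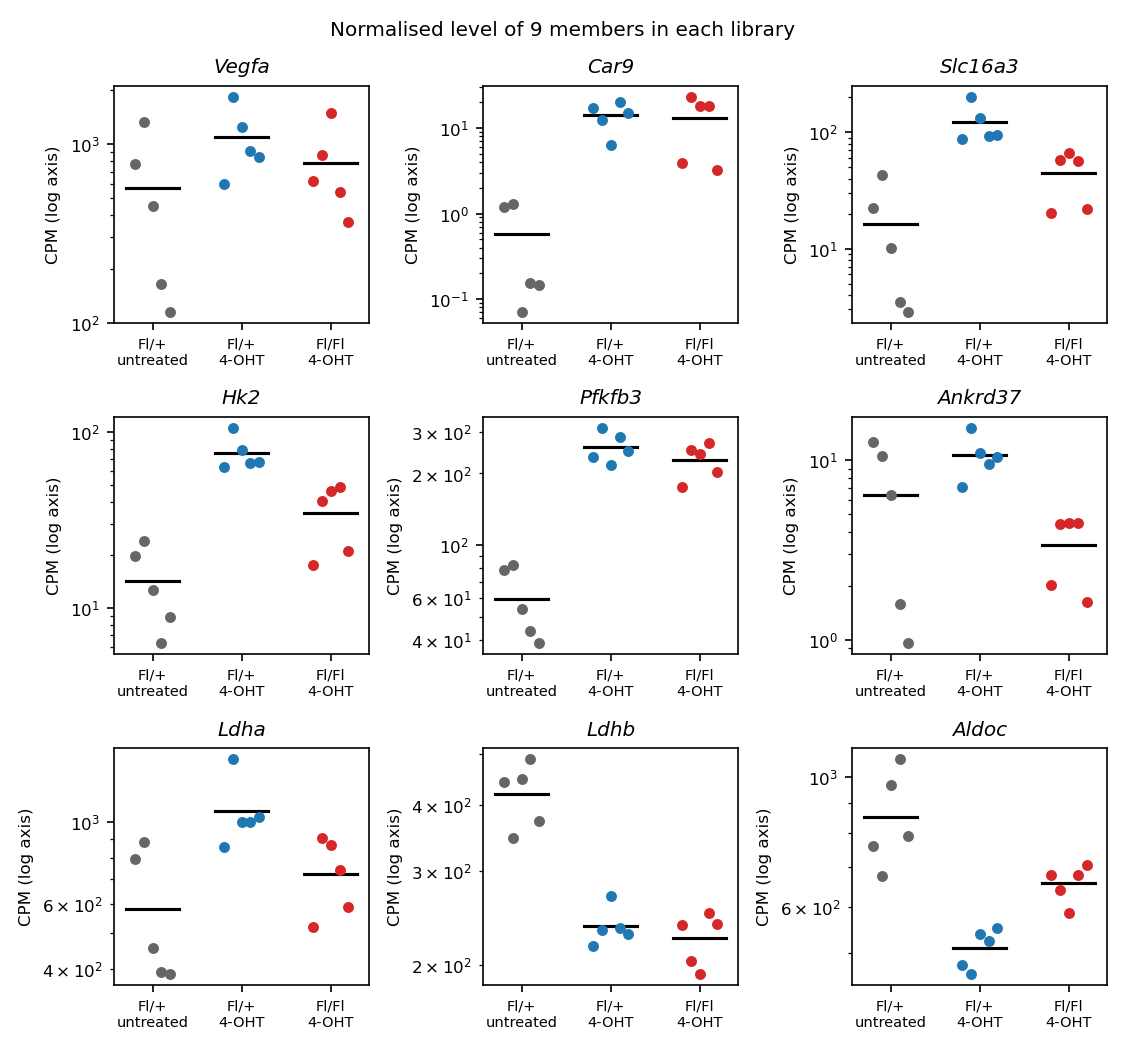
CPM (log axis) of 9 members in each of the 15 libraries, by group, with the group mean as a bar, points within a group ordered by mouse number. Car9 and Pfkfb3 in both treated groups lie above all untreated cultures, Hk2, Slc16a3 and Ankrd37 are lower in Fl/Fl than in Fl/+ after 4-OHT without overlap, and Ldhb and Aldoc are lower after 4-OHT.

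The collagen prolyl hydroxylases, needed for stable collagen, followed the same order of groups. P4ha2 was at 4.24, 11.2, 1.82, 0.616 and 0.332 CPM untreated and at 16.0, 36.5, 26.1, 22.1 and 24.7 CPM after 4-OHT, with 9.33, 12.6, 25.0, 18.4 and 6.12 CPM in Fl/Fl cultures. Fl/+ groups did not overlap (log2 fold change 2.78 ± 0.74), and Fl/Fl cultures overlapped both. The estimates were -0.80 ± 0.34 for the deletion (edgeR adjusted p = 0.0989) and 1.98 ± 0.78 against untreated. The last is given with no p, since untreated mouse 36 held 9 counts and P4ha2 passed the filter through its treated libraries. P4ha1 had 161 ± 77.5, 352 ± 105 and 297 ± 71.0 CPM (mean ± SD, n = 5) and was higher in Fl/Fl 4-OHT than in untreated cultures by 0.89 ± 0.30 (edgeR adjusted p = 0.0412).

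The nuclear targets Kdm3a, a histone H3K9 demethylase, and Mxi1, an antagonist of MYC, were little different after 4-OHT and lower after the deletion. Kdm3a, with a log2 fold change of 0.27 ± 0.17 for 4-OHT, was at 196, 254, 204, 134 and 127 CPM untreated and at 210.1, 255, 212, 205 and 219 CPM after 4-OHT. Fl/Fl cultures were at 125, 157, 190.1, 133 and 118 CPM, all below the Fl/+ 4-OHT range, with a log2 fold change of -0.59 ± 0.13 (edgeR adjusted p = 0.00605), and the estimate against untreated was -0.33 ± 0.20 (edgeR adjusted p = 0.241). The call of Kdm3a was the same in all 18 alternatives. Mxi1 fell from 111 ± 22.1 to 67.3 ± 18.1 CPM, by 0.71 on the log2 scale (SE 0.19, edgeR adjusted p = 0.0167), with overlap.

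Slc2a1, Slc2a3 and Slc16a3, transporters listed with this comparison in view, were each higher after 4-OHT in Fl/+ with no overlap, as were 6.52% of all genes tested. Slc2a1 (GLUT1), the main basal glucose importer, was at 160.3, 167, 87.4, 74.8 and 77.7 CPM before and 205, 356, 265, 256 and 251 CPM after treatment, a log2 fold change of 1.24 ± 0.25. Slc2a3 (GLUT3), a high-affinity importer typical of neurons, went from 44.8, 64.4, 31.6, 26.4 and 22.2 CPM to 122, 220.1, 151, 137 and 135 CPM, or 2.01 ± 0.28. Slc16a3 (MCT4), which exports lactate, went from 22.2, 42.8, 10.2, 3.47 and 2.84 CPM to 87.4, 203, 132, 93.6 and 95.8 CPM, or 2.91 ± 0.66. In each of the 3, the lowest treated culture was above the highest untreated one.
In Fl/Fl cultures Slc16a3 was at 20.4, 57.8, 66.8, 56.8 and 22.03 CPM. All of these were below the Fl/+ 4-OHT values, by a log2 fold change of -1.44 ± 0.37 (2.71-fold lower, edgeR adjusted p = 0.0123), a call that 1 joint fit over all 15 libraries did not make (edgeR adjusted p = 0.0819). Against untreated cultures the Slc16a3 estimate was 1.47 ± 0.68 (edgeR adjusted p = 0.123). Slc2a1 at 118, 211, 235, 318 and 139.9 CPM and Slc2a3 at 58.7, 112, 118, 144 and 71.6 CPM overlapped the Fl/+ 4-OHT group. Their deletion estimates were -0.37 ± 0.25 (edgeR adjusted p = 0.274) and -0.59 ± 0.24 (edgeR adjusted p = 0.0849). Against untreated cultures Slc2a3 was higher by 1.43 ± 0.32 (edgeR adjusted p = 0.00640, a description). For Slc2a1 the estimate of 0.86 ± 0.31 did not pass (edgeR adjusted p = 0.0563) but passed in 9 of 18 alternatives.

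In upper glycolysis, 5 of 11 members were called higher and 1 lower after 4-OHT, and 5 were called lower and 3 higher in the Trrap deletion, where 15.0% and 16.8% of all genes tested were (7.34% higher and 6.45% lower after 4-OHT). Hk2, the inducible hexokinase, was at 19.7, 24.1, 12.6, 6.31 and 8.95 CPM untreated and at 62.8, 106, 78.6, 66.5 and 67.7 CPM after 4-OHT. The Fl/Fl cultures, at 17.7, 40.3, 46.5, 48.6 and 21.1 CPM, lay below all Fl/+ 4-OHT cultures, and mice 27 and 39 lay within the untreated range. For Hk2 the log2 fold change was 2.41 ± 0.33 for 4-OHT, -1.12 ± 0.28 for the deletion (edgeR adjusted p = 0.0112, called in all 18 alternatives) and 1.29 ± 0.39 for Fl/Fl against untreated (edgeR adjusted p = 0.0283, lost in 5 of 18 alternatives). The constitutive Hk1 had 249 ± 33.3, 408 ± 55.2 and 287 ± 58.1 CPM (mean ± SD, n = 5) and was lower after the deletion by 0.49 (log2 fold change -0.49 ± 0.14, edgeR adjusted p = 0.0204).

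Pfkfb3, whose product makes the fructose 2,6-bisphosphate that drives phosphofructokinase, was at 78.5, 82.4, 53.6, 43.6 and 38.6 CPM untreated and at 235, 311, 217, 284 and 249 CPM after 4-OHT. It stayed near that level in Fl/Fl cultures, at 176, 250.1, 242, 268 and 202 CPM. Thus Pfkfb3 was higher without overlap in both treated groups (2.13 ± 0.22 and 1.95 ± 0.22, the second with edgeR adjusted p = 0.000171). That p is a description, since the same untreated libraries were in view when the genes were chosen. The deletion estimate of Pfkfb3, -0.18 ± 0.13, did not pass (edgeR adjusted p = 0.330). Pfkfb4, with a log2 fold change of 0.32 ± 0.13 for 4-OHT in Fl/+, was at 7.46, 6.53, 7.25, 9.32 and 7.29 CPM untreated, 9.10, 9.34, 9.68, 9.40 and 9.74 CPM in Fl/+ 4-OHT and 12.6, 11.8, 12.4, 14.4 and 12.3 CPM in Fl/Fl. It was higher in Fl/Fl than in either Fl/+ group without overlap, by 0.44 ± 0.09 (edgeR adjusted p = 0.00520) and 0.76 ± 0.13 (edgeR adjusted p = 0.00167, a description).

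The 3 phosphofructokinase genes had different estimates, which were not compared in a test. Pfkp, the platelet form, had 53.7 ± 38.5, 203 ± 45.4 and 113 ± 43.8 CPM (mean ± SD, n = 5), higher after 4-OHT by 1.92 ± 0.40 and lower after the deletion by a log2 fold change of -0.84 ± 0.24 (edgeR adjusted p = 0.0218). Pfkl, the liver form, had 250 ± 137, 504 ± 146 and 442 ± 106 CPM. Its estimates were 1.01 ± 0.36 for 4-OHT, not called in the unpaired fit, and -0.18 ± 0.21 for the deletion. Pfkm, the muscle form, had 349 ± 49.0, 317 ± 55.2 and 452 ± 45.2 CPM, and was higher after the deletion by 0.53 ± 0.12 (edgeR adjusted p = 0.00774) and than untreated by 0.39 ± 0.11 (edgeR adjusted p = 0.0215). So the muscle form was highest in the group in which the platelet form was intermediate.

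The 2 aldolases differed in opposite directions in the Trrap deletion. Aldoc, the brain isozyme expressed by astroglia and stem cells, was at 761, 676, 967, 1073 and 792 CPM untreated and at 477, 459.9, 538, 525 and 552 CPM after 4-OHT, a log2 fold change of -0.74 ± 0.13. In Fl/Fl it was at 680.0, 639, 585, 679 and 707 CPM, above every Fl/+ 4-OHT culture (0.38 ± 0.08, edgeR adjusted p = 0.00439) and lower than untreated (-0.36 ± 0.13, edgeR adjusted p = 0.0481, lost in 12 of 18 alternatives). Aldoa had 1204 ± 443, 1589 ± 467 and 1009 ± 203 CPM (mean ± SD, n = 5) and was lower after the deletion by a log2 fold change of -0.64 ± 0.20 (edgeR adjusted p = 0.0314). Gpi1, the second enzyme of the pathway, had 1179 ± 531, 2976 ± 1272 and 2202 ± 540 CPM and was higher in Fl/Fl 4-OHT than in untreated cultures by 0.92 ± 0.29 (edgeR adjusted p = 0.0322). Tpi1 had 538 ± 207, 925 ± 286 and 539 ± 135 CPM and was lower after the deletion by a log2 fold change of -0.76 ± 0.23 (edgeR adjusted p = 0.0246).

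Among the 6 members of lower glycolysis, Pgk1, the first ATP-yielding enzyme, was called higher after 4-OHT and lower in the deletion. The share of 1 in 6 lower (16.7%) is near the 15.0% of all genes tested. Pgk1 was at 34.9, 23.6, 13.6, 25.4 and 24.7 CPM untreated and 42.5, 78.8, 57.5, 46.9 and 40.4 CPM after 4-OHT, without overlap. Fl/Fl cultures had 30.5, 41.4, 39.6, 34.9 and 26.8 CPM. The log2 fold changes of Pgk1 were 1.13 ± 0.25, -0.61 ± 0.19 (edgeR adjusted p = 0.0322, lost in 5 of 18 alternatives) and 0.52 ± 0.21 (edgeR adjusted p = 0.0866). Pkm, whose product yields pyruvate, had 1078 ± 234, 1366 ± 331 and 1194 ± 74.5 CPM (mean ± SD, n = 5), and Eno2, the neuronal enolase, 6.39 ± 2.39, 9.86 ± 1.55 and 11.1 ± 4.09 CPM. Gapdh, at 7.11 ± 2.25, 9.94 ± 3.85 and 6.10 ± 1.64 CPM, and Pgam1, at 28.8 ± 10.6, 36.4 ± 7.36 and 26.9 ± 5.04 CPM, were low for such abundant mRNAs. Both have processed pseudogenes, the counts hold uniquely mapped reads only, and their levels are therefore uncertain, as is that of Pgk1.

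Eno1 shares its sequence with the near-identical copy Eno1b, and the share of counts assigned to each copy differed between the mice. The reason for this was not tested. In cultures of mice 19, 24 and 26, Eno1b took 16.7% to 20.7% of the summed counts, in those of mice 27, 28 and 29 5.98% to 6.68%, and in those of mice 35, 36, 37 and 39 0.0666% to 0.135%. Among mice 19 to 29, Fl/+ and Fl/Fl cultures thus differed in this share. Eno1 alone had a log2 fold change of 0.63 ± 0.35 for 4-OHT and -0.06 ± 0.28 for the deletion (edgeR adjusted p = 0.882). With both counts summed, an alternative chosen after seeing the data, the estimates were 0.65 and -0.17 (edgeR adjusted p = 0.615 for the deletion).

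**Figure D3:**
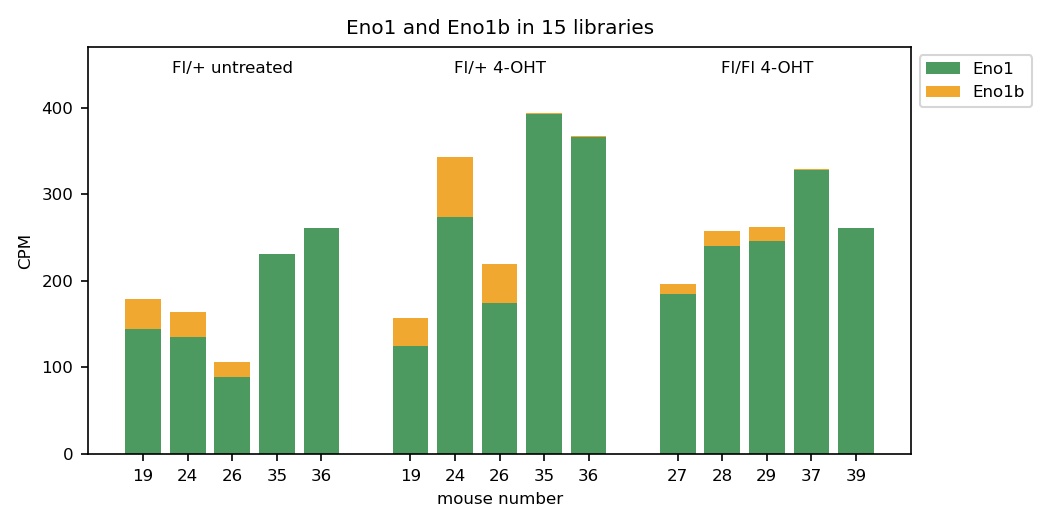
CPM of Eno1 and of its near-identical copy Eno1b (stacked bars, CPM) in each library, by group and mouse number. Eno1b is visible in mice 19, 24, 26, 27, 28 and 29 (5.98% to 20.7% of the sum) and close to 0 in mice 35, 36, 37 and 39.

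At the branch from pyruvate, genes for the 2 lactate dehydrogenase subunits parted. Ldha, the subunit that favours lactate, was at 794, 885, 455, 393 and 387 CPM untreated and at 854, 1482, 999, 1001 and 1028 CPM after 4-OHT. Ldhb, the subunit of oxidative tissues, was at 442, 348, 449, 489 and 374 CPM before and 216, 232, 270.0, 234 and 228 CPM after treatment. Every mouse thus had more Ldha and less Ldhb after 4-OHT, with log2 fold changes of 0.88 ± 0.26 and -0.83 ± 0.11. In Fl/Fl cultures Ldha was at 519, 906, 866, 739 and 589.8 CPM, lower than in Fl/+ 4-OHT by a log2 fold change of -0.55 ± 0.18 (edgeR adjusted p = 0.0391, lost in 8 of 18 alternatives), and not distinguished from untreated (0.33 ± 0.26, edgeR adjusted p = 0.375). Ldhb stayed low in Fl/Fl, at 237, 203, 192, 251 and 239 CPM, below every untreated culture (-0.89 ± 0.11, edgeR adjusted p = 0.000352, a description). Its deletion estimate was -0.06 ± 0.09 (edgeR adjusted p = 0.639). Pdk1, a kinase that shuts pyruvate out of the mitochondrial pyruvate dehydrogenase, was at 122, 193, 93.5, 66.9 and 67.9 CPM untreated, 188, 339, 230.1, 201 and 206 CPM in Fl/+ 4-OHT and 118, 195, 211, 159.5 and 101 CPM in Fl/Fl. Each of the 5 mice had more Pdk1 after treatment (log2 fold change 1.10 ± 0.29). Its deletion estimate of -0.55 ± 0.22 did not pass (edgeR adjusted p = 0.0782) but passed in 3 of 18 alternatives, and that of 0.54 ± 0.31 against untreated did not pass (edgeR adjusted p = 0.202).

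Untreated cultures differed from each other more than treated ones. The ratio of the highest to the lowest untreated culture exceeded that of Fl/+ 4-OHT in 33 of 39 members, and it was over 10 for 6 members, with 33.9 for P4ha2, 26.8 for Ndrg1, 18.4 for Car9, 15.1 for Slc16a3, 13.3 for Ankrd37 and 11.6 for Vegfa, while no ratio within either treated group was over 10. Some of these rest on few counts, since the lowest untreated library held 9 of P4ha2, 2 of Car9, 26 of Ankrd37 and 30 of Ndrg1. Mouse 24 was the highest untreated culture for 30 members and mouse 36 the lowest for 25. After 4-OHT mouse 24 was again the highest for 30 and mouse 19 the lowest for 25. The median 4-OHT log2 ratio over the members was 0.27 in mouse 19, 0.74 in mouse 24, 1.12 in mouse 26, 1.35 in mouse 35 and 1.41 in mouse 36. In mouse 19, 26 members were higher and 13 lower after treatment. Within mice 19, 24 and 26 the median difference of the members on the log2(CPM + 0.5) scale was 0.60, and within mice 35 and 36 it was 1.38. For the Trrap deletion it was -0.47 within mice 19 to 29 (3 against 3 cultures) and -0.42 within mice 35 to 39 (2 against 2). Fl/Fl 4-OHT against untreated gave 0.40 and 0.90.

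**Figure D4:**
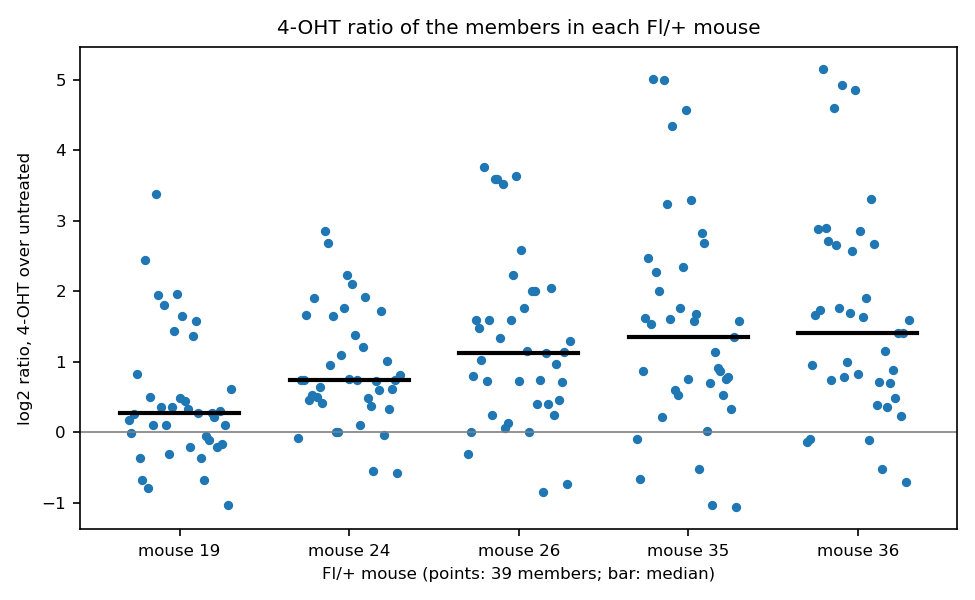
Log2 ratio of 4-OHT over untreated on the CPM + 0.5 scale for each of the 39 members (points) in each Fl/+ mouse, with the median as a bar. The medians lie between 0.27 in mouse 19 and 1.41 in mouse 36.

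**Figure D5:**
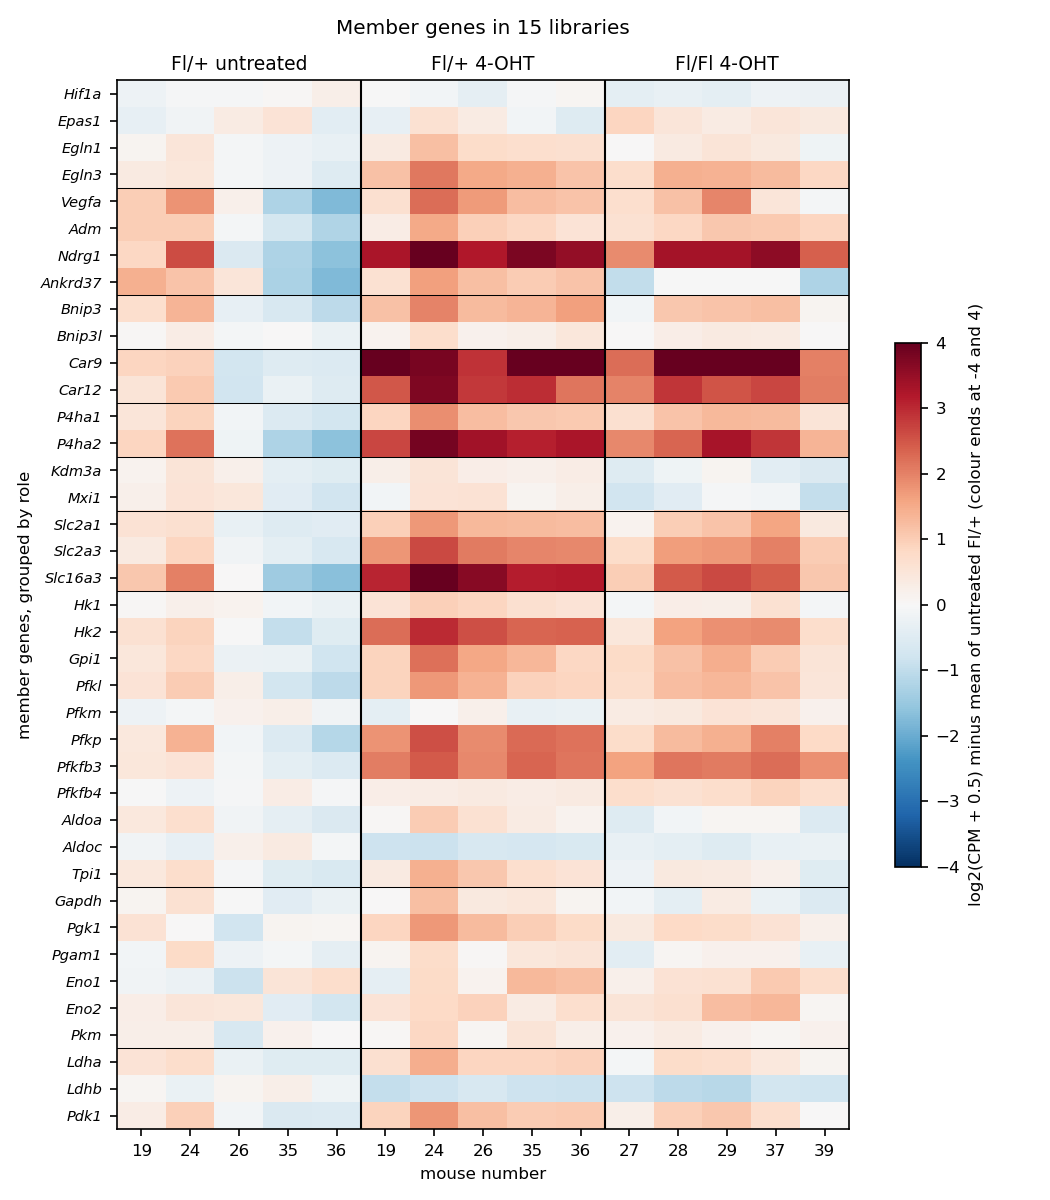
Log2(CPM + 0.5) of the 39 members (rows, grouped by role) in the 15 libraries (columns, by group and mouse number), relative to the mean of the untreated Fl/+ cultures. Untreated mice 19 and 24 are above that mean for most members and mice 35 and 36 below it, with library medians of 0.42, 0.66, -0.40 and -0.53.

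Per kb of exon, Aldoa had the highest mean of the members in all 3 groups, with 414 ± 152, 546 ± 160 and 347 ± 69.6 CPM per kb (SD, n = 5), counting uniquely mapped reads only, so that Gapdh, Pgk1 and Pgam1 have no reliable rank. Gpi1 lay within the spread of Aldoa in both treated groups (461 ± 197 and 341 ± 83.7 CPM per kb). In untreated cultures Ldhb (268 ± 37.0 CPM per kb, SD) and Aldoc (262 ± 49.7 CPM per kb) came next, not apart beyond their spread. After 4-OHT in Fl/+ Gpi1 was followed by Tpi1 (336 ± 104 CPM per kb) and Ldha (324 ± 72.2 CPM per kb), levels within their spread, while Ldhb was eighth of the 39. Car12 had the lowest mean in every group, at 0.174 ± 0.132, 1.56 ± 0.727 and 1.10 ± 0.306 CPM per kb, which in untreated cultures was not apart from Car9 (0.248 ± 0.267 CPM per kb).

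Among the 59 other genes of the pathways, 50 could be tested in the 4-OHT comparison, where 15 were called higher and 2 lower (30% and 4% of the 50, against 7.34% and 6.45% of all genes tested). By class these were 13 of 24 other HIF targets higher and 1 lower, 2 of 20 other glycolysis and pyruvate genes higher and 1 lower, and none of 6 HIF pathway genes (Arnt, Arnt2, Hif3a, Vhl, Hif1an and Egln2), at an adjusted p under 0.05 in edgeR. Their largest log2 fold changes without overlap were those of Ero1l, an oxidase of the endoplasmic reticulum (2.36 ± 0.34), Loxl2, a collagen cross-linking enzyme (2.05 ± 0.55), Stc1, a secreted glycoprotein (1.58 ± 0.32), and the glycogen branching enzyme Gbe1 (1.46 ± 0.23). In the Trrap deletion 13 of 50 were lower and 2 higher (26.0% and 4.00%, against 15.0% and 16.8% of all genes tested). The 13 became 4 without Fl/Fl mouse 27, 7 without Fl/Fl mouse 39, 6 without the Fl/+ 4-OHT library of mouse 24 and 8 in the joint fit of all 15 libraries. Ccng2, a cyclin G (-0.87 ± 0.16, edgeR adjusted p = 0.00278), the cytokine gene Mif (-0.64 ± 0.19, edgeR adjusted p = 0.0257, lost in 5 of 18 alternatives) and Stc2 (-0.63 ± 0.19, edgeR adjusted p = 0.0292, lost in 2 of 18) were lower without overlap. Plod1, a collagen lysyl hydroxylase, was higher (0.65 ± 0.09, edgeR adjusted p = 0.000532), after having been lower with 4-OHT in Fl/+ (-0.54 ± 0.09). Against untreated cultures, Fl/Fl 4-OHT cultures were higher in 11 and lower in 7 of 51 (21.6% and 13.7%, against 15.7% and 15.1% of all genes tested), so that the share lower was near that of all genes. Hkdc1, a hexokinase-related gene, had a log2 fold change of 2.28 ± 0.32, given with no p because it passed the filter through its treated libraries (0.193 to 0.589 CPM untreated). Ero1l was higher without overlap by 1.88 ± 0.33 (edgeR adjusted p = 0.00196) and Stc1 by 1.64 ± 0.29 (edgeR adjusted p = 0.00211).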

How the data were processed

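RNA-seq was done on 15 aNSC cultures. The authors sequenced stranded mRNA libraries with single-end reads over 3 lanes, mapped them with STAR (v. 2.5.4b) to mouse GRCm38 and assigned uniquely mapped reads to genes with featureCounts (v. 1.5.0), and the deposited values are these raw counts per gene. Genes were named by Ensembl identifier, and 53706 of 53801 matched the annotation. Groups were taken from the sample labels.

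Here each of 3 pairwise comparisons (5 against 5 libraries) was fitted on all genes kept by filterByExpr (minimum count 10) with TMM scaling and the quasi-likelihood test of edgeR (v. 4.0.16, R v. 4.3.3), with Benjamini-Hochberg adjustment over all genes tested and a threshold of 0.05. Scripts were tested on simulated data. CPM are TMM-scaled. Log2 ratios per mouse used a pseudocount of 0.5 CPM. The study used DESeq2, which (v. 1.42.0) was run as an alternative. Library totals are given above, and Car9 rests on 2 to 37 counts in untreated libraries.

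The Fl/+ cultures are paired by mouse number in their labels: deviations from the group means correlated at 0.204 to 0.586 within a mouse and -0.489 to 0.317 between mice over 15435 genes. Values in every library are given for 12 members fixed by name and, in each comparison, for up to 8 members of largest absolute log2 fold change among those called, without overlap and with a mean of at least 1 CPM. Of the other pathway genes, fold changes alone are given for up to 4 a comparison by the same rule. Alternatives were another normalization, filter, tool, covariate or joint fit, the replicate block, and leaving out each library in turn. The members and gene lists were chosen with earlier results of these data known. Sequences were taken from RefSeq. A gene that the naming rule picks is not reported here.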

Additional observations from a re-analysis of the deposited data

Results flagged for a closer look

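In 117 tests (39 members in 3 groups) of whether 1 culture stood far from the other 4 of its group by Dixon's 95% limit, 7 did so, where chance picks out about 1 group in 20. Untreated mouse 24 had 29.7 CPM of Ndrg1 (other cultures 1.11 to 8.33) and 47.4 CPM of Pgam1 (21.3 to 25.9). After 4-OHT the same mouse had 255 CPM of Kdm3a (205 to 219), 16.5 CPM of Gapdh (6.93 to 9.64), 1482 CPM of Ldha (854 to 1028) and 339 CPM of Pdk1 (188 to 230.1). Fl/Fl mouse 27 had 165 CPM of Epas1 (114 to 127). The 4-OHT log2 ratio in Fl/+ had opposite signs in all cultures labelled female and all labelled male for 2 members. The mean ratio of Epas1 was 0.38 in females and -0.26 in males, 0.64 apart, and that of Pfkm was 0.06 and -0.28, 0.34 apart. Only mice 24 and 26 were labelled female, and mouse 26 was at 0.006 for Epas1 and 0.0092 for Pfkm, so that both female means rest on mouse 24 (0.75 and 0.11). These differences between the sexes were not tested.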

How the results depend on the processing

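Of 991 alternative values of single genes, 890 kept their direction and side of the threshold, 57 lost and 24 gained the call, and 20 changed sign, the cause of which was not tested. The sign of Epas1 after 4-OHT turned to -0.043 with labelled sex, -0.012 with the mouse number series (19 to 29 or 35 to 39) as a covariate and -0.0025 with the replicate block, and ranged from -0.16 to 0.17 with single libraries left out. In the Trrap deletion, the same range was -0.39 to 0.15 for Car9, -0.11 to 0.22 for Adm and -0.26 to 0.10 for Eno1, and the series covariate turned Eno1 to 0.005.

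Among other pathway genes, 2 were called lower after 4-OHT, but 5 with the DESeq2 Wald test, all 15 libraries or labelled sex, 4 with the series covariate, 1 with library-size scaling and 7 with mice as replicate block, which gave 24 members higher. In the deletion, all 15 libraries in 1 fit gave 7 members lower and 8 other genes lower, and 4 other genes were higher with DESeq2, 5 with library-size scaling and 4 with labelled sex. Against untreated, 18 members were higher with the series covariate, and 1 was lower with library-size scaling or without a filter.

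With each library left out in turn, members called higher and lower ranged from 12 to 22 and 2 to 2 after 4-OHT, 3 to 4 and 7 to 15 in the deletion, and 6 to 17 and 1 to 3 against untreated (1 lower without Fl/Fl mouse 27, 28 or 29). Other genes ranged from 12 to 16 and 1 to 3, 2 to 4 and 4 to 12, and 10 to 14 and 5 to 8. Deletion calls of other genes fell to 6 without Fl/+ 4-OHT mouse 24, 4 without Fl/Fl mouse 27 and 7 without Fl/Fl mouse 39. Median log2 fold changes of the members ranged from 0.66 to 1.02, -0.55 to -0.25 and 0.41 to 0.71. Library-size scaling moved the split of all genes called higher and lower from 1088 and 956 to 1396 and 712 (4-OHT), from 2520 and 2253 to 2848 and 1951 (deletion) and from 2357 and 2263 to 3150 and 1603 (against untreated). Car9 and P4ha2 had no value where 10 counts were asked of every library, and depth limits Car9 in untreated cultures (2 to 37 counts).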

Other observations

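Pdha1, which encodes the catalytic alpha subunit of pyruvate dehydrogenase, was at 430 ± 15.2 CPM (SD, n = 5) in untreated Fl/+, 402 ± 29.1 CPM in Fl/+ 4-OHT and 306 ± 15.2 CPM in Fl/Fl 4-OHT cultures. It was lower in Fl/Fl than in both Fl/+ groups without overlap, by log2 fold changes of -0.38 ± 0.07 and -0.48 ± 0.07 (edgeR adjusted p = 0.00296 and 0.000638). Pdhb, the beta subunit, had 92.8 ± 10.007, 76.6 ± 3.87 and 65.3 ± 4.05 CPM and differed in the same way, by -0.21 ± 0.06 and -0.49 ± 0.09 (edgeR adjusted p = 0.0278, lost in 3 of 18 alternatives, and 0.00176). Dlat, the E2 subunit, had 125 ± 10.2, 128 ± 18.8 and 108 ± 11.9 CPM and passed neither test. The genes of the mitochondrial pyruvate carrier, Mpc1 and Mpc2, were lower in Fl/Fl than in untreated cultures by -0.62 ± 0.19 and -0.44 ± 0.12 (edgeR adjusted p = 0.0281, lost in 5 of 18 alternatives, and 0.0155), and their deletion estimates of -0.22 ± 0.24 and -0.02 ± 0.10 did not pass (edgeR adjusted p = 0.516 and 0.875). After 4-OHT in Fl/+ the estimate of Mpc2 was -0.42 ± 0.12, given with no p because the gene was chosen with its values seen. Its call there was lost in 10 of 19 alternatives. It was lower in all 5 mice, as were 17.8% of all genes tested.

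Gys1 and Vldlr were, like Hk2, higher after 4-OHT in Fl/+ and lower in the deletion. The glycogen synthase Gys1 was at 132 ± 29.2, 245 ± 61.1 and 151 ± 36.7 CPM. It was higher after 4-OHT in all 5 mice, as were 17.8% of all genes tested, and lower in the deletion by -0.68 ± 0.20 (edgeR adjusted p = 0.0223). The lipoprotein receptor Vldlr was at 78.0 ± 17.1, 157 ± 41.7 and 100.2 ± 29.2 CPM and lower in the deletion by -0.63 ± 0.22 (edgeR adjusted p = 0.0464, lost in 9 of 18 alternatives). Higd1a and Insig2 were higher in both treated groups than in untreated cultures without overlap, and their deletion estimates were 0.01 ± 0.13 and 0.11 ± 0.13 (edgeR adjusted p = 0.967 and 0.558). All genes of this section were chosen after their values were seen.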
